A study of Mus musculus with 2 samples.

Results

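Microtubules and actin filaments are the main polymers of the cell skeleton, and the genes described here encode their subunits. The set was fixed as a list of 10 genes: the alpha tubulins Tuba1a, Tuba1b and Tuba1c, the beta tubulins Tubb2a, Tubb2b, Tubb3, Tubb5 and Tubb6, and the cytoplasmic actins Actb and Actg1. Members were found as all spots that carry one of these gene names and are not controls, which gave 33 of 43379 spots and 15 probes for 9 of the 10 genes. No probe carried the name or RefSeq accession of Tuba1b, so it was not analysed here. The 9 measured genes are part of 16698 measured genes in all.

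The RNA came from kidneys of male CD-1 mice and was hybridised to 2 dual-colour arrays, with the dyes swapped from one to the other. Both conditions were fed AIN-93G chow with 0.2% adenine by weight, which forms crystals in the tubules and serves as a chronic kidney disease model. In one condition this diet was fed alone, and in the other together with 2% HMPA by weight, a phenolic acid whose full name is 3-(4-hydroxy-3-methoxyphenyl)propionic acid. Feeding lasted 1 week from 7 weeks of age per the protocol, while the sample titles give 12 weeks of age and 5 mice, without saying whether their RNA was pooled. The labels name no separate animals per array, so the arrays were taken as 1 RNA sample per condition measured once in each dye, and no test and no p-value is possible. Kidney without adenine was not on the arrays, so the ratios do not show what adenine did. In whole kidney RNA, fewer cells of a type and less RNA per cell cannot be told apart.

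Alpha and beta tubulin join as a dimer, and these dimers stack into the hollow microtubule. Mammals carry several genes, or isotypes, of each subunit, whose proteins are nearly alike and whose transcripts differ mostly outside the coding part. Cells hold tubulin transcripts in balance with the pool of free dimers: when free tubulin is high, the factor TTC5 recognises newly made tubulin and its transcripts are degraded. Beta and gamma actin make up the filaments under the plasma membrane, in the brush border and in stress fibres. Actin genes are classical targets of serum response factor (SRF) and its partners, and some of these partners are held inactive by free actin monomers. Proximal tubule cells that lose their differentiated shape after injury are known to rebuild both filament systems, and Actb is also widely used as a reference gene.

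Sequences of 4 probes are shown because the isotypes are close paralogs and a ratio can only be read with what the probe can bind. Each is the 60-base oligonucleotide of the array, given 5′ to 3′. They were chosen after their letters were seen, from the 11 probes with at least 1 reading frame free of stop codons, as stretches that read like coding sequence, which no annotation was used to check. Capitals mark the stretch in which the first Tubb2a probe and the Tubb5 probe align.
Tubb2a, first probe: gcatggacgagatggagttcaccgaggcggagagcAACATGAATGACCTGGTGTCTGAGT
Tubb5, second probe: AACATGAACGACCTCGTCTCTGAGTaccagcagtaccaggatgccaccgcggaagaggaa
Tubb2a, another probe: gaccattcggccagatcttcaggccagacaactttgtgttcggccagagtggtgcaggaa
Actg1, second probe: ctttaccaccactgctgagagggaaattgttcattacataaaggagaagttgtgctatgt
The first Tubb2a probe is listed in the files with RefSeq transcripts of 4 genes, Tubb2a, Tubb2b, Tubb3 and Tubb6, and so cannot be given to 1 isotype. Its last 25 bases match the first 25 of the second Tubb5 probe at 22 positions (88.0%). Among 105 pairs of the 15 probes, this was the only pair of different genes to reach 80% identity over at least 25 aligned bases. Probes were compared only with each other and not with transcripts, so this does not show which transcripts each can bind. The other 14 probes list RefSeq transcripts of at most 1 gene, and 4 of the 15, for Tuba1a, Tubb3, Tubb6 and Tuba1c, have a stop codon in every reading frame.

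A gene was counted as lower or higher by size alone: its mean over both arrays had to reach 2-fold, and each array 1.5-fold the same way. Ratios are HMPA over adenine alone on the log2 scale, where −1 is 2-fold lower, and ± tells how far each array lies from that mean. With HMPA, 6 of the 9 measured genes were lower by this rule and 0 were higher, against 7.72% of all measured genes lower and 6.64% higher. The median ratio of the 9 was −1.09 (−1.09 on array 1 and −1.12 on array 2), beside −0.04 over all measured genes. The members ran from −2.52 for Tuba1a to −0.45 for Tubb3. All 9 were above background in all 4 channels, and for all 9 both HMPA signals lay below both adenine signals, as they did for 41.0% of all measured genes. Ratios below 0 on both arrays were found for all 9 and for 42.9% of all measured genes. Centring each array on its median in place of the intensity-dependent (loess) scaling moved the median of all genes to −0.22 and the split of all genes past the rule from 1109 higher and 1289 lower to 749 and 1973. With that centring 6 of the 9 genes were again lower, with a median of −1.39.

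**Figure D1:**
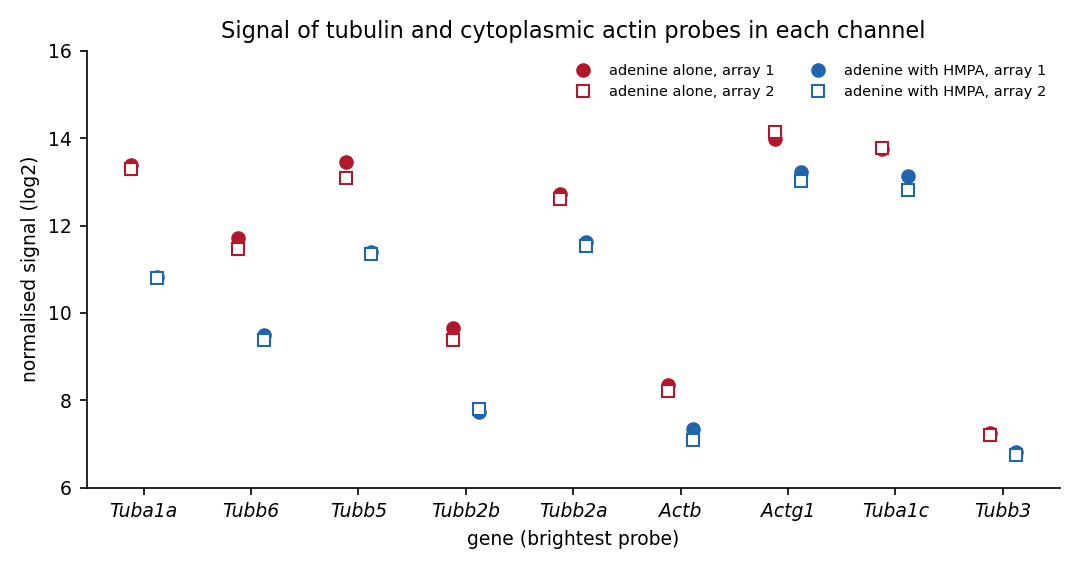
Normalised log2 signal of the brightest probe of each of the 9 measured genes, in order of their ratio. Red points are adenine alone and blue points adenine with HMPA, filled for array 1 and open for array 2. Every gene has its blue points below its red points, from a gap of about 2.52 for Tuba1a to 0.45 for Tubb3, and heights of different genes are not comparable because each probe binds with its own strength.

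Among the alpha tubulins, Tuba1a, an isotype abundant in developing neurons, differed most. Its log2 signal was 13.38 on array 1 and 13.29 on array 2 with adenine alone, and 10.83 and 10.80 with HMPA. The ratio was −2.52 ± 0.03, a 5.73-fold difference, and 77 of the 16698 measured genes had a lower one. Array values of each condition lay far closer together than the conditions did. Its only probe is placed on chromosome 15 from 98780278 to 98780293 (build mm9), which covers 16 of its 60 bases. Exons and UTRs are not given for any probe, because no annotation of mm9 was used.

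Tuba1c was the other measured alpha isotype. The log2 signal of its brighter probe (chromosome 15, 98868480 to 98868536) was 13.75 and 13.77 with adenine alone, and 13.12 and 12.82 with HMPA. Its ratio of −0.79 ± 0.16, or 1.73-fold, did not meet the rule. The second probe (98864740 to 98864931) gave −0.93 ± 0.37, with −0.56 on array 1 and −1.31 on array 2. Both Tuba1c probes thus lay below 0 on both arrays, and both lay nearer 0 than the Tuba1a probe on each.

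The beta tubulin Tubb6, class V, is the isotype with the second lowest ratio. Its log2 signal was 11.71 and 11.47 with adenine alone, and 9.495 and 9.39 with HMPA. The ratio was −2.15 ± 0.07, a 4.42-fold difference, and the conditions did not overlap. Another spot named Tubb6 in the files belongs to a cDNA clone, and its position runs against the direction of the Tubb6 transcript probe. This clone went the other way, with ratios of 0.55 on array 1 and 0.98 on array 2 (mean 0.76 ± 0.22, short of the rule as higher). The clone is described apart from the gene because of its strand, and the brighter transcript probe stands for Tubb6 by the same rule as for every gene. With the mean over both spots Tubb6 was −0.69 and did not meet the rule.

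Tubb5, the class I isotype found in nearly all cells, had a pair of probes that lie close together on chromosome 17. The log2 signal of the brighter one (35971872 to 35971931) was 13.45 and 13.08 with adenine alone, and 11.40 and 11.36 with HMPA. Its ratio was −1.89 ± 0.17, a 3.70-fold difference. The second probe (35971963 to 35972022), whose sequence is printed above, gave −1.60 on each array. Both probes thus met the rule.

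Tubb2b, a class II isotype known from the developing brain, had log2 signals of 9.65 and 9.37 with adenine alone, and 7.73 and 7.79 with HMPA. The ratio at its probe (chromosome 13, 34219061 to 34219120) was −1.75 ± 0.17, a 3.36-fold difference. Its neighbour in the genome, Tubb2a, is the other class II isotype. The brightest Tubb2a probe (chromosome 13, 34166411 to 34166470) is the one shared in the files with Tubb2b, Tubb3 and Tubb6. Signals at that probe were 12.72 and 12.61 with adenine alone, and 11.63 and 11.53 with HMPA, a ratio of −1.09 ± 0.0064. The probes listed for Tubb2a alone gave −1.43 ± 0.57 (34166116 to 34166145, −0.86 and −2.005) and −0.98 ± 0.30 (34167380 to 34168088, −0.68 and −1.28). All 3 Tubb2a probes were below 0 on both arrays, but those listed for Tubb2a alone differed between arrays by more than the shared one. Whether they also bind other isotypes was not tested.

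Tubb3, the class III isotype used as a marker of neurons, had the smallest difference in the main setting, while with Feature Extraction's ratio Tuba1c (−0.63) lay nearer 0 than Tubb3 (−0.72). Its probe (chromosome 8, 125945701 to 125945760) is printed 10 times on each array, and 4 of these spots were marked unreliable on array 1. Mean log2 signals were 7.25 and 7.21 with adenine alone, and 6.82 and 6.74 with HMPA, so this is also a dim probe. The ratio was −0.45 ± 0.02, or 1.36-fold, and did not meet the rule. Spots ran from −0.49 to −0.37 on array 1 (SD 0.04, n = 6 spots) and from −0.66 to −0.35 on array 2 (SD 0.12, n = 10 spots). These SDs measure the printing and reading of spots within an array, not differences between animals.

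**Figure D2:**
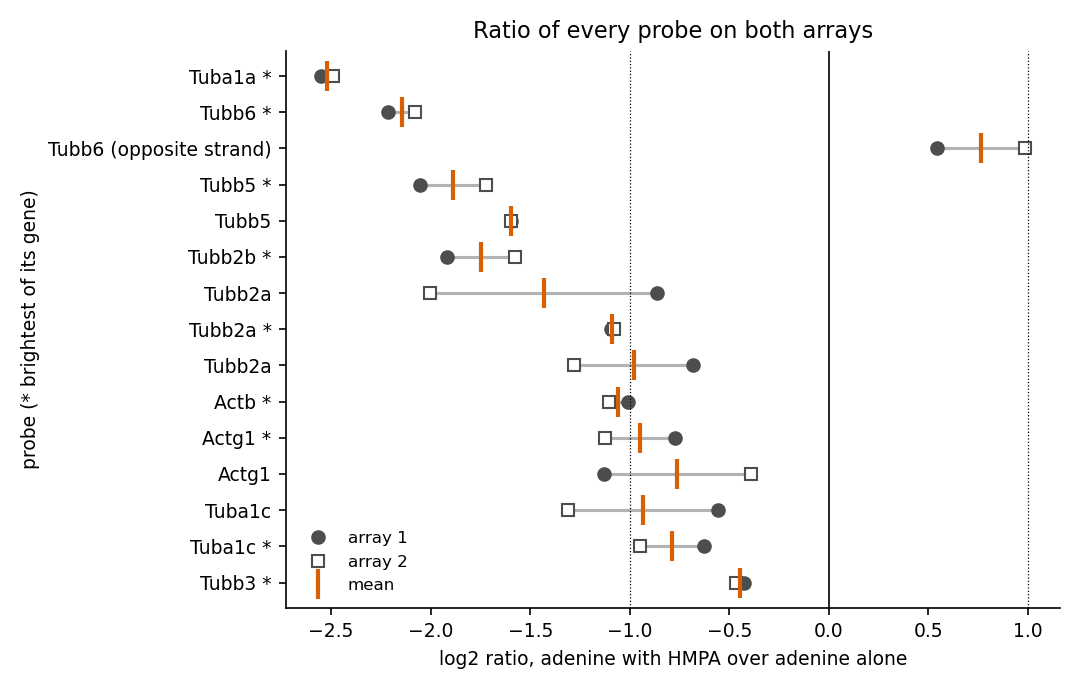
Log2 ratio of HMPA over adenine alone for each of the 15 probes, as a filled circle on array 1, an open square on array 2 and a bar at their mean. Dotted lines mark 2-fold. Every probe lies left of 0 on both arrays except the Tubb6 clone, drawn as opposite strand, at 0.76, and the Tubb2a probe with a mean of −1.43 has the widest distance between arrays.

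Both cytoplasmic actins lay below 0 on both arrays. Actb, beta actin, was read by 1 probe printed 10 times (chromosome 5, 143665245 to 143665304). Its mean log2 signal was 8.36 and 8.20 with adenine alone, and 7.35 and 7.10 with HMPA. The ratio was −1.06 ± 0.05, a 2.08-fold difference just past the rule. Single spots ranged from −1.25 to −0.74 on array 1 (SD 0.18, n = 10 spots) and from −1.45 to −0.82 on array 2 (SD 0.17, n = 10 spots). No spot of either array reached 0. Before normalisation the Actb spots averaged 365 and 306 units with adenine alone and 80.3 and 128 with HMPA. These units still hold background and dye differences, so they do not give the size of the difference between conditions.

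Gamma actin, Actg1, had a ratio just short of the rule. The log2 signal of its brighter probe (chromosome 11, 120207446 to 120207505) was 13.99 and 14.14 with adenine alone, and 13.22 and 13.01 with HMPA. This gave −0.95 ± 0.18, or 1.93-fold, with −0.77 on array 1 and −1.12 on array 2. On array 2 alone it would be counted as lower. The second probe (120208371 to 120208430), whose sequence is printed above, gave −0.76 ± 0.37. Actb at −1.06 and Actg1 at −0.95 stand on either side of the threshold, 0.11 apart, with overlapping array values in the main setting. The gap was 0.38 with offset 16 and 0.43 under median centring. With only array 1 it was 0.24, and with only array 2 it was −0.02, where Actg1 was the lower. It was 0.57 in Feature Extraction's ratio, where Actb (−1.45 and −1.33) and Actg1 (−0.73 and −0.92) did not overlap.

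**Figure D3:**
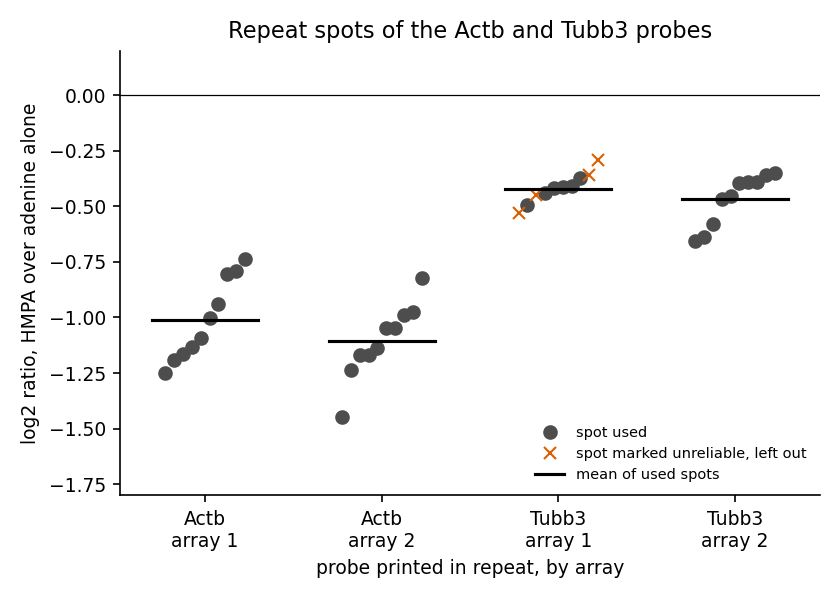
Log2 ratios of the 10 spots of the Actb and the Tubb3 probe on each array, with crosses for the 4 Tubb3 spots marked unreliable and left out, and a bar at the mean of the used spots. Actb spots lie between −1.45 and −0.74 and used Tubb3 spots between −0.66 and −0.35, so the spots of the genes do not overlap.

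In order from the lowest ratio, the genes were Tuba1a, Tubb6, Tubb5, Tubb2b, Tubb2a, Actb, Actg1, Tuba1c and Tubb3. Of the neighbours in this order, the array values of Tuba1a and Tubb6, Tubb6 and Tubb5, Tubb2b and Tubb2a, and Tuba1c and Tubb3 did not overlap. Those of Tubb5 and Tubb2b, Tubb2a and Actb, Actb and Actg1, and Actg1 and Tuba1c did. The beta tubulins spanned 1.70 and the alpha tubulins 1.73 on the log2 scale, while the actins were 0.11 apart in the main setting. Tubb2a takes its place from the shared probe. Of the probes listed for Tubb2a alone, the one at −1.43 (−0.86 and −2.005) overlaps the array values of Tubb2b. The one at −0.98 would stand after Actb and short of the rule. This order is that of the main setting.

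Genes with a pattern most like that of Tuba1a were sought among 1584 genes of similar signal, by distance over the ratios of the 2 arrays. The nearest was the chemokine Cxcl14 (−2.52 ± 0.02, distance 0.07), followed by Aoc1, which breaks down histamine and putrescine (−2.56 ± 0.11, distance 0.13), and annexin A1, Anxa1 (−2.56 ± 0.12, distance 0.14). With 2 arrays this likeness says only that the ratios were close.

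Other tubulin genes lay mostly nearer 0. Of 12 further tubulins, 9 were measured, 1 was lower and 0 were higher, with a median of −0.10 (0.09 over those above background in all 4 channels). The lower one was Tubb4a, a class IV isotype of the nervous system (−1.03 ± 0.14), which with only array 1 was −0.88 and did not count, and with Feature Extraction's ratio was −1.55. The other class IV isotype, Tubb4b, known from cilia, was 0.22 ± 0.27, and the alpha isotype Tuba4a was 0.09 ± 0.07. Gamma tubulin Tubg1, which nucleates microtubules, was 0.16 ± 0.35. Tuba3a had −1.46 on array 1 and −0.29 on array 2. The difference between these tubulins and the 9 genes was not tested.

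Genes that fold and modify tubulin had medians near that of all genes, and microtubule-associated genes had a lower one. Of 7 tubulin folding and assembly factors, 0 were higher and 0 lower (median −0.07, but 0.03 with only array 2 and −0.33 with median centring), with Tbcel at 0.75 ± 0.09 and Tbcc at −0.44 ± 0.35 the farthest from 0. Of 15 genes of the chaperonin and prefoldin, which fold both tubulin and actin, 0 were higher and 0 lower (median −0.09, but 0.04 with only array 2 and 0.01 with the mean over probes). Its members Cct5 (−0.60 ± 0.03) and Cct6a (0.60 ± 0.12) lay on opposite sides. Of 22 microtubule-associated proteins and stathmins, 20 were measured, 1 was lower and 2 higher (median −0.25, and −0.47 with median centring). Means below 0 were found for 14 and above 0 for 6, with Map7d1 (−0.99 ± 0.01) and Map1b (−0.93 ± 0.25) just short of the rule. Map4, the main such protein outside neurons, was −1.04 ± 0.19, while Mapt, encoding tau, was 1.28 ± 0.17 and Map7, an epithelial one, 1.18 ± 0.15. With the mean over all probes Map4 was −0.74 and Map7 0.82, with only array 2 Map4 was −0.86, and with median centring Map7 was 0.87, none of which counts. Of 14 tubulin modifying enzymes, 1 was lower and 0 higher (median 0.07, but −0.08 with only array 2 and −0.24 with median centring), the lower one being Svbp, partner of the vasohibins that remove the last tyrosine of alpha tubulin (−1.06 ± 0.10, but −0.96 with only array 2).

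Most actin genes outside the set were lower too. Of 4 muscle actins, 3 were lower and 0 higher (median −1.17): Acta2 of smooth muscle (−1.56 ± 0.08), Actg2 of visceral smooth muscle (−1.17 ± 0.19) and Actc1 of heart (−1.17 ± 0.09). Acta2 with the mean over all probes (−0.99) and Actg2 with only array 1 (−0.98) did not count as lower. The coding parts of actin genes are close to identical, and whether these probes share signal was not tested. Of 14 genes that bind actin monomers or belong to the SRF axis, 13 were measured, 4 were lower and 0 higher (median −0.72). The thymosins Tmsb4x (−2.50 ± 0.07) and Tmsb10 (−2.22 ± 0.26), which hold actin monomers, were lowest. Mrtfa, the SRF partner that senses free actin, was −1.10 ± 0.12 (−0.98 with only array 1) and cofilin, Cfl1, was −1.001 ± 0.25. Cfl1 did not meet the rule under 6 of 10 alternative settings, among them array 2 alone (−0.75). Of the 13 genes, 10 had means below 0 and 3 above. Those above were Pfn2 (0.72 ± 0.03), Twf1 (0.22 ± 0.18) and Mrtfb (0.06 ± 0.01), the last not above background in all 4 channels. Srf itself was −0.28 on array 1 and −1.14 on array 2, short of the rule.

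**Figure D4:**
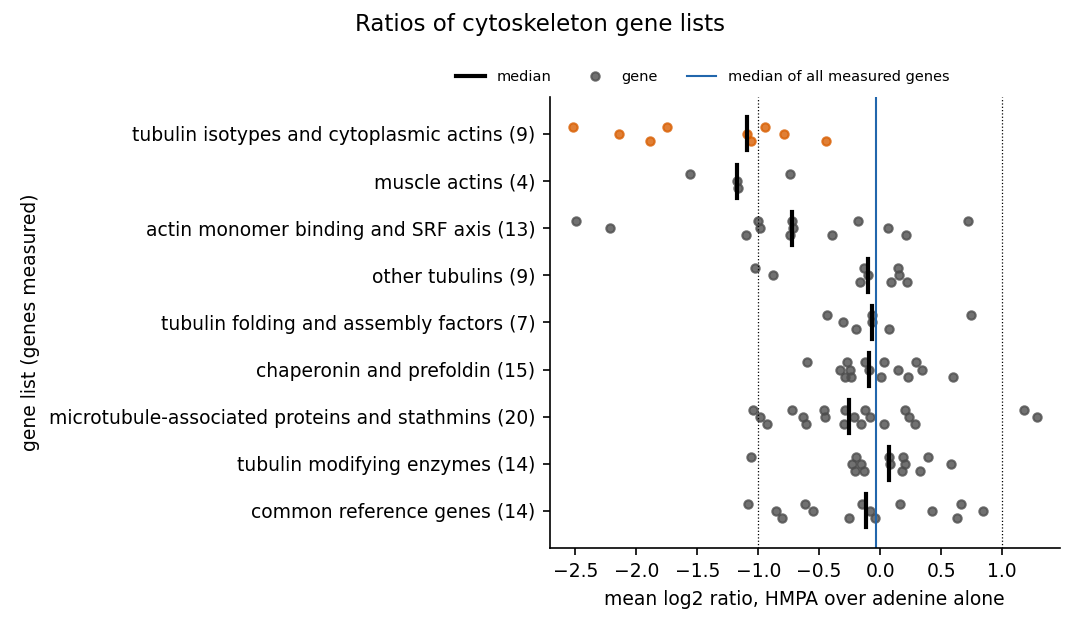
Mean log2 ratio of each measured gene (points) and the median (black bar) in 9 lists of the cytoskeleton and of reference genes, with dotted lines at 2-fold and a blue line at the median of all measured genes, −0.04. The medians of the measured tubulin isotypes and cytoplasmic actins (−1.09) and of the muscle actins (−1.17) lie left of −1, and those of the 4 lists of other tubulins, folding factors, chaperonin and modifying enzymes lie between −0.10 and 0.07.

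Because Actb is a common reference gene, 14 other such genes were read beside it. Of these, 1 was lower and 0 were higher, with a median of −0.12, and in the main setting only Rplp0 had a lower mean than Actb at −1.06. Nearest to 0 were Gusb (−0.04 ± 0.07), Ppia (−0.08 ± 0.02), Polr2a (−0.15 ± 0.07), Tbp (0.16 ± 0.04) and Hprt (−0.25 ± 0.28). Above 0 lay Gapdh (0.43 ± 0.30) and Pgk1 (0.85 ± 0.18), both of glycolysis. Below 0 lay Ywhaz (−0.55 ± 0.23), B2m (−0.62 ± 0.14), Eef1a1 (−0.86 ± 0.12) and the ribosomal genes Rpl13a (−0.81 ± 0.57) and Rplp0 (−1.08 ± 0.36). Rplp0 met the rule, but not with offset 16 (−0.98), median centring (−0.95), Feature Extraction's ratio (−0.72), the mean over probes (−0.92) or only array 1 (−0.72). The values of Actb lay within its range over the arrays.

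Several marker lists of other cell states and types were lower beside these genes. Of 19 genes of dedifferentiated or injured tubule, 16 were lower and 1, Havcr1, higher (median −2.09), with Spp1 (−3.55 ± 0.0036), Lcn2 (−2.98 ± 0.03), Vcam1 (−2.92 ± 0.24) and Krt20 (−2.89 ± 0.20) lowest. Their summed signal was 250171 and 244070 units with adenine alone and 50157 and 43777 with HMPA. All 11 macrophage markers were lower (median −2.05), from a sum of 78491 and 76806 to 12983 and 11246, with Lyz2 at −2.91 ± 0.10, C1qc at −2.47 ± 0.08, Mrc1 at −2.34 ± 0.26 and Fcgr1 at −2.26 ± 0.02. Of 10 fibroblast and pericyte markers, 8 were lower (median −1.83), from 112409 and 102650 to 19201 and 15315. The lowest were the collagens Col1a1 (−3.23 ± 0.17), Col1a2 (−2.89 ± 0.27) and Col3a1 (−2.82 ± 0.14), and Thy1 (−2.52 ± 0.52). With the mean over all probes Col1a1 was −1.86, Col3a1 −1.76 and Thy1 −1.47, all still past the rule. Of 7 genes of vascular smooth muscle, 2 were lower (median −0.69), Tagln (−2.69 ± 0.31) and Mylk (−1.06 ± 0.17, but −0.89 with only array 2), while the lineage's own myosin, Myh11, was 0.14 ± 0.15. Their summed signal went from 16872 and 18532 to 4404 and 3967, most of it Tagln, without which it went from 3851 and 3477 to 1892 and 2086. Without their brightest genes, the other sums went from 146024 and 154554 to 41229 and 36141 (injured tubule, without Spp1), from 19651 and 19179 to 4621 and 4101 (macrophages, without Lyz2) and from 70088 and 64027 to 12316 and 10994 (fibroblasts, without Col1a2). The part of these cells in the tubulin and actin ratios was not tested.

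Other cell types moved less. Of 15 proliferation genes, 2 were lower, Mki67 (−1.01 ± 0.21, but −0.80 with only array 2 and −0.79 with the mean over probes) and Birc5 (−1.01 ± 0.11, but −0.91 with only array 1), with a median of −0.55 and 15 ratios below 0. Their sum was 10578 and 9799 units with adenine alone and 6827 and 6868 with HMPA. Of 8 endothelial markers 0 were lower or higher (median −0.21, and −0.48 with median centring), and their sum went from 14620 and 13624 to 10998 and 11130. Means below 0 were found for 6 of them, with Eng at −0.69 ± 0.21 and Ptprb at −0.67 ± 0.23 the lowest. The 2 above 0 were Kdr (0.51 ± 0.10) and Tek (0.32 ± 0.15). Of 15 neuronal and glial markers, 9 were measured and 1 was lower, Uchl1 (−2.22 ± 0.22). Their median was −0.20 and their sum went from 1593 and 1779 to 837 and 761. Uchl1 made up most of that change, since without it the sum went from 642 and 669 to 600 and 556, and with the mean over its probes Uchl1 was −1.39. Among the others, Snap25, Elavl3, Nefl, Nefm and Gfap did not pass the filter on dim probes, and Rbfox3, Syt1, Elavl4 and Nefh were not above background in all 4 channels.

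Kidney markers were all measured, as the tissue label has it. Of 10 proximal tubule genes, 9 were higher and 0 lower with HMPA (median 2.63), with Kap at 3.90 ± 0.11, Miox at 3.02 ± 0.28, Lrp2 at 2.73 ± 0.07 and Slc34a1 at 2.68 ± 0.77, and their sum rose from 42356 and 61097 units to 350995 and 353168. Of 6 thick limb and distal tubule genes 4 were higher (median 1.33, Egf at 3.60 ± 0.0098 and Pvalb at 3.00 ± 0.13), and of 6 collecting duct genes 5 (median 2.08, Slc4a1 at 2.61 ± 0.17 and Aqp3 at 2.59 ± 0.30). Of 5 podocyte genes, 1 was lower, Synpo (−1.04 ± 0.10, but −0.94 with only array 1 and −0.49 with the mean over probes), with a median of −0.09. Their part in the tubulin and actin ratios was not tested either.

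The members that differed and those that differed less were also set beside the letters of their promoters, taken from RefSeq on build GRCm38.p6. The table holds 7 of the 10 genes. Actb, Tubb2b and Tubb6 are not in it and were not searched, while Tuba1b is in it but has no ratio here. The 250 bases before the start of 3 of them are shown: Tuba1a, the lowest, Tubb5, with both probes past the rule, and Actg1, which holds an SRF motif. All are on the minus strand, written 5′ to 3′ in the direction of the gene, and capitals mark matches to the motifs named below.
Tuba1a, chr15:98953502-98953751: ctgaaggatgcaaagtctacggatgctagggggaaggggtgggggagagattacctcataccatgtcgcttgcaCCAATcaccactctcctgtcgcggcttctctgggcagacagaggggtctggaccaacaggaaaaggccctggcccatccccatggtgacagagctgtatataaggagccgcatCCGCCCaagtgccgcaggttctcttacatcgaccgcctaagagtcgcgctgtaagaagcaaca
Tubb5, chr17:35838302-35838551: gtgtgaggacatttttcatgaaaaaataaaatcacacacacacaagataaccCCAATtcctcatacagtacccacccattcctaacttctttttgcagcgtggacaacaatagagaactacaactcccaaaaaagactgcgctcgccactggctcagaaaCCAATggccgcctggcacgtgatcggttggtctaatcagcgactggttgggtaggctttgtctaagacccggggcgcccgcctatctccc
Actg1, chr11:120348496-120348745: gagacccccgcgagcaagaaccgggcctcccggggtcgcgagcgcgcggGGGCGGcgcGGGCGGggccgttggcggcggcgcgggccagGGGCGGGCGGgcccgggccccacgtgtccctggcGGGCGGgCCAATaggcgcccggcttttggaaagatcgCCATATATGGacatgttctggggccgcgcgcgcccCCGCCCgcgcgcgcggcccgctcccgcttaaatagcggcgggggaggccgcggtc
Searched on both strands were the CArG box of SRF, CCAAT, the GC box GGGCGG, the TATA box TATAAA, the AP-1 site TGACTCA and the cyclic AMP element TGACGTCA. The CArG box was found in Actg1, 90 bases before its start, and in none of the other 6 windows. It is present in 1.39% of 27025 promoter windows of that length. CCAAT, found in 34.2% of windows, was present in Tubb3, Actg1, Tuba1a, Tuba1c and Tubb5, with 2 matches in Tubb5. The GC box, found in 32.7%, was present in all but Tuba1c and Tubb5, and of the 6 matches in Actg1 those 161 and 157 bases before the start overlap each other. Tubb2a alone held TATAAA (12.9% of windows, 29 bases before its start) and TGACGTCA (1.56%, 59 bases before it), and no window held TGACTCA (4.47%). Matches are letters in a window and not sites shown to be bound.

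Across 10 alternative settings of the ratios, all 9 genes stayed below 0. Tuba1a ranged from −2.64 to −2.49, Tubb5 from −2.05 to −1.72 and Tubb2b from −2.08 to −1.58. Actb ranged from −1.39, with Feature Extraction's own ratio, to −1.01. Tubb3 did not reach the rule in any setting and ranged from −0.73 to −0.42.

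**Figure D5:**
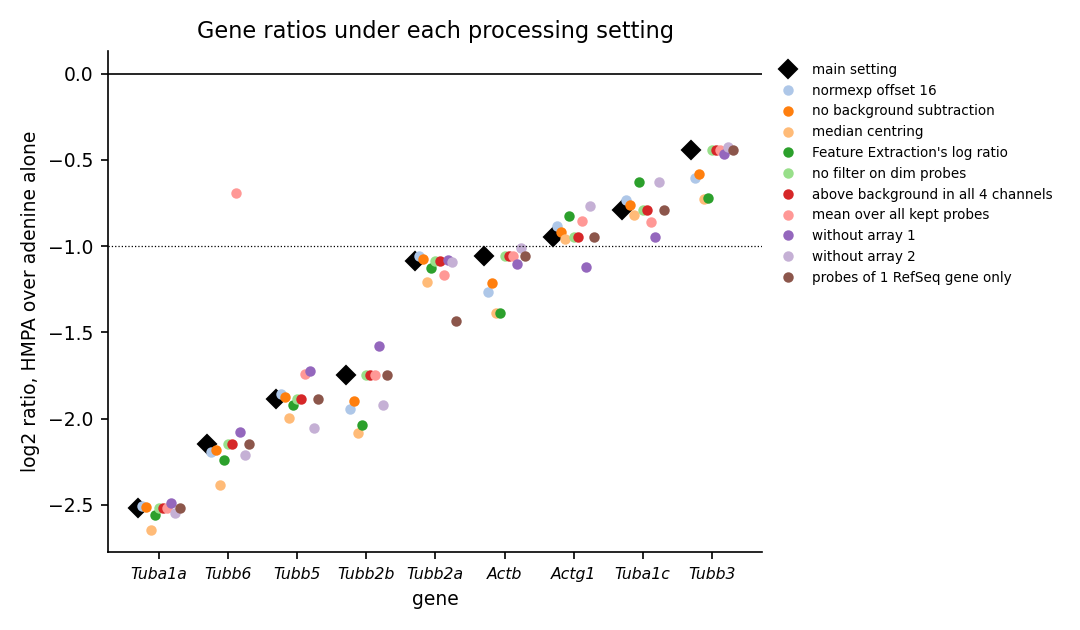
Log2 ratio of each of the 9 genes under the main setting (black diamond) and 10 alternatives (coloured points), with a dotted line at 2-fold lower. All points lie below 0, and the single point far from its gene is Tubb6 at −0.69, from averaging its transcript probe with the clone on the opposite strand.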

How the data were processed

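Kidney RNA of 2 conditions was read on 2 Agilent dual-colour arrays with swapped dyes. Spot means and local background medians are intensity values per the file headers. The deposited log ratio column is log10 of red over green after background subtraction and dye normalization by Feature Extraction 12.2.0.7 per the file headers (9.5 per the submitters' processing notes). The series' deposited value table gives this log10 ratio again, within 0.00499, not turned for the dye swap, with a median of 0 on both arrays. The p-value column is Feature Extraction's for single spots per the file headers and was not used.

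Background was corrected with normexp (offset 50) and ratios scaled by loess within each array in limma 3.58.1 (R 4.3.3), with weight 0 for control and unreliable spots (281 and 297 of 43379). Levels per channel are given after quantile scaling of mean signals between arrays. No spot was saturated, and between 57.9% and 67.9% of spots per channel were well above background. The number of arrays limits the precision. Spots of a probe were averaged, and probes well above background in 1 condition on both arrays were kept (25138), with the brightest probe standing for a gene. Names came from a RefSeq table by accession (21374 probes), symbol (1932) or older symbol (8), with 1824 left as in the file. A dye contrast, in which the condition cancels, gave 0 genes past the rule. By the rule both arrays must go the same way in red over green. A gene whose condition difference exceeds its dye effect cannot do so, and the 0 does not cover such genes. Steps were tested on simulated data. Figures used Python 3.11.15 and matplotlib 3.10.9.

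Members and the 19 other lists were chosen with earlier results of these data known. All members were named. From other lists, the largest ratios past the rule were taken for naming, up to 4 per list and detected in every channel, or 2 where none passed, plus reference genes. Some items of these lists and probes are not reported here. Tubb4b, Tuba4a, Tuba3a, Tubg1, Myh11, Havcr1, Kdr, Tek, Pfn2, Twf1, Srf, Mrtfb, Map7d1, Map1b and undetected markers were named after their values were seen.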

Additional observations from a re-analysis of the deposited data

How the results depend on the processing

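The count of 6 lower members was the same under both other background corrections, median centring, Feature Extraction's ratio, either filter on dim probes, and probes listed for 1 RefSeq gene, a setting added after seeing the data. It was 5 with the mean over all kept probes, where Tubb6 was −0.69, and 8 with a 1.5-fold rule, and no member was higher in any of these. With 1 array left out it was 6 to 7, since Actg1 (−1.12) met the rule on array 2 alone. The members' median was −1.27 with offset 16, −1.21 without background subtraction, −1.39 with median centring, −1.39 with Feature Extraction's ratio, −1.06 with the mean over probes, −1.43 with probes of 1 RefSeq gene, and −1.12 to −1.09 with 1 array left out. Counts over all genes moved most: lower genes numbered 1973 with median centring, 2461 with Feature Extraction's ratio and 2771 with the 1.5-fold rule, and higher genes 749, 2043 and 2317. With 1 array left out, 1154 to 1253 genes were higher and 1280 to 1484 lower. The cause was not tested, except that the 1.5-fold rule is wider by construction. Outside the members, 69 of 200 medians moved by more than the spread between arrays. That spread is the SD of 2 array medians and can be very small, so a median that moved may have shifted little. Of the medians, 7 changed sign, all with main values between −0.10 and 0.07. The farthest from 0 after the change was −0.24, for tubulin modifying enzymes with median centring. Of 616 values of named genes, 27 fell short of the rule, 2 newly met it and 3 changed sign (Tbp, Gusb and Hprt, none of them called). Actb and Tubb3 were read by dim probes, whose ratios the added offset draws toward 0 by construction. No paired analysis was possible because every ratio is already taken within an array, so that no unpaired fit or further block exists, and the slide as a block was not run because both arrays are on 1 slide.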
